A study of Xenopus laevis with 3 samples.

Results

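Expression of the genes that build and remodel the non-muscle actin cytoskeleton was examined in the inner ear of larval X. laevis. Members were chosen by gene symbol, with earlier results of these data known. They are the frog probe sets whose only symbol in the platform annotation, without its copy suffix, matches a set of actin, actin-binding protein and non-muscle myosin names, with myo6 and myo1a left out. This rule took 103 of 32475 frog probe sets, which represent 55 of 9240 annotated genes. The study has a single condition, untreated inner ear tissue of larvae at stages 56 to 58, aged 38 to 44 days after fertilization and bought from a supplier, for which the labels give no strain or genotype. RNA of 3 pools, called replicates 1, 2 and 3 and made from 10, 7 and 8 animals, was hybridized to 1 Affymetrix GeneChip array each. As no other tissue or stage was included, each gene was set against the GCRMA value of 4 that the study used as its threshold of expression, and the 3 arrays were set beside each other.

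Actin filaments form when globular actin monomers add to a growing end, and their number and shape are set by proteins that store monomers, start or branch filaments, cap their ends, cut them, bundle them and tie them to membranes. In the inner ear these filaments have a prominent place, since each stereocilium of a hair cell is a stiff rod of parallel actin filaments held together by bundling proteins and anchored in an actin meshwork below the cell surface. Supporting cells also carry actin belts at their junctions. Most of the genes concerned are used by nearly every cell, so their RNA in a whole inner ear comes from many cell types at once.

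Nearly all of these genes were expressed in the larval inner ear. The actins actb and actg1, the monomer-binding proteins pfn1 and tmsb4x, the Arp2/3 subunits and the capping protein subunits were among the 52 of 55 genes (94.5%) with a mean GCRMA value above 4, while vcl, vil1 and wasll had a mean below 4. The calls are from limma's one-sided moderated test at an adjusted p under 0.05. The same test called 78.7% of all 9240 annotated genes above 4 and 18.9% below it. The counts by role given below are of few genes each and stand beside these same shares. As the members were chosen with earlier results known, differences between their shares and those of all genes cannot be read as a result. A gene was represented by its probe set with the highest mean, which favours genes with several probe sets. Of members with 1 probe set 25 of 26 (96.2%) were above 4, beside 72.9% of all such genes, and of members with 2 or more it was 27 of 29 (93.1%), beside 86.5%. Counted by probe set, 92 of 103 (89.3%) were above 4 and 11 were below, beside 71.8% above among all probe sets with a single symbol and 63.1% above and 33.6% below among all frog probe sets. GCRMA values are log2 intensities that also depend on the probes, so levels of different genes or copies are given but not ranked. Precision is limited by the small number of arrays. Each pool was a separate set of animals with its own RNA and array, so the spread between replicates holds differences of animals, dissection and hybridization together. The tissue matched its label in part. Of 7 markers of supporting cells and otic epithelium 6 were above 4, with pax8 at 1.93 as the exception, and of 13 hair cell markers only myo6, calb1 and kcnma1 were measured, all above 4. Markers of other cell types were detected too, among them 9 of 10 measured for skeletal muscle and 4 of 4 for cartilage. The values are thus those of the dissected tissue as a whole.

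**Figure D1:**
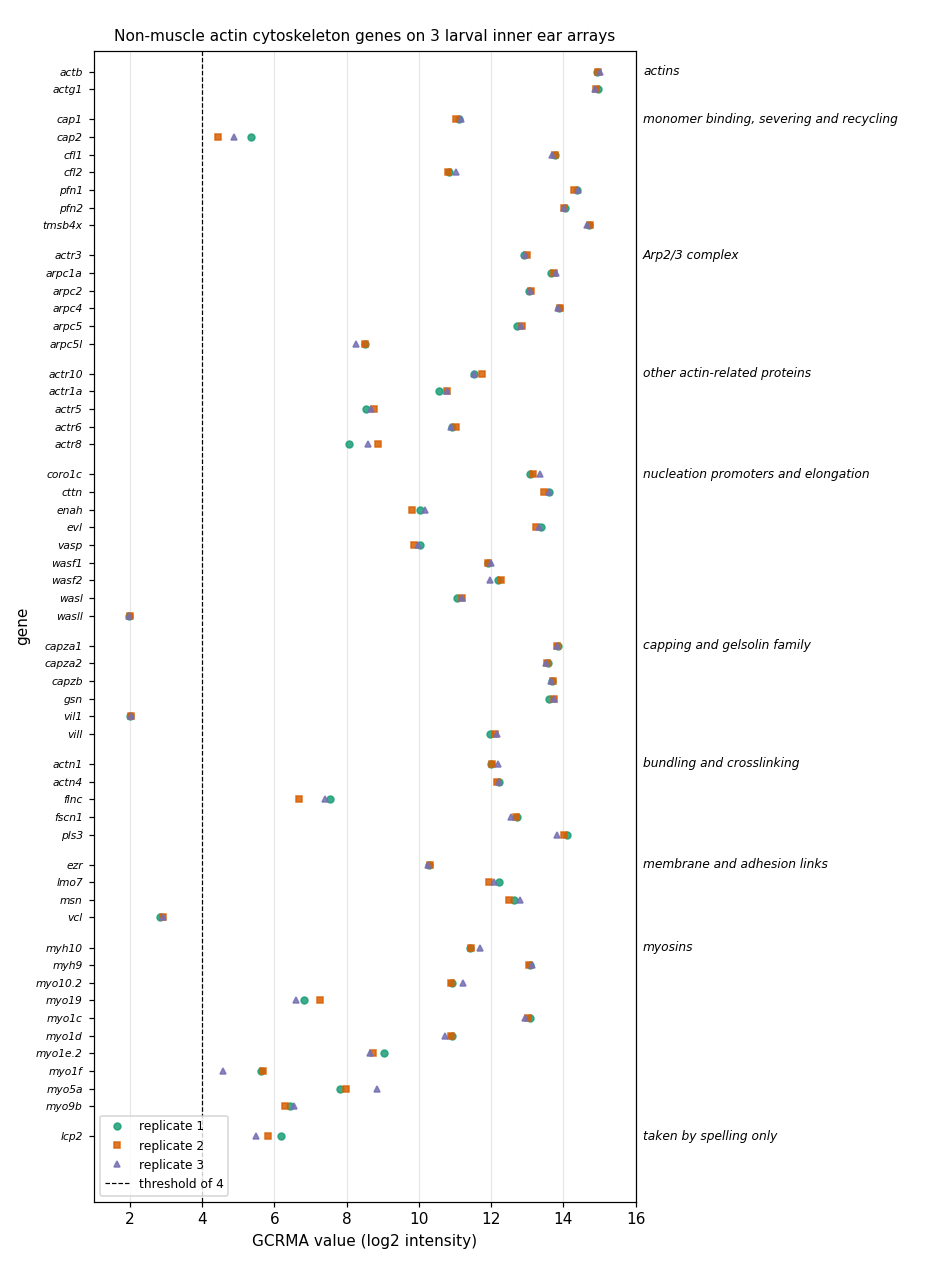
GCRMA value (log2 intensity) of each of the 55 genes on the 3 arrays, 1 symbol per replicate, with genes grouped by role and the threshold of 4 as a dashed line. For 52 genes all 3 symbols lie to the right of the line, and for wasll, vil1 and vcl all 3 lie to the left.

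Both cytoplasmic actins, the subunits of the filament itself, were detected with almost the same value on every array. The gene actb, which encodes beta actin, had GCRMA values of 14.92, 14.95 and 15.004 in replicates 1, 2 and 3, averaging 14.96 ± 0.04 (SD, n = 3). For actg1, which encodes gamma actin, they were 14.97, 14.90 and 14.87, averaging 14.91 ± 0.05 (SD, n = 3). The 3 values of each gene lay close together. Their SDs were near the median of 0.05 for all 216 annotated genes with means of 14 or higher. Actin genes are close in sequence, and probe sets may share signal with the muscle actins. The muscle actins were lower in replicate 3, with actc1.L, cardiac muscle actin, at 12.65, 12.86 and 10.88 and acta1.S, skeletal muscle actin, at 7.63, 7.55 and 7.22 in replicates 1, 2 and 3, while the difference of replicate 3 from the mean of the other arrays was 0.07 for actb and -0.06 for actg1. Shared signal between these probe sets was not tested. A second probe set of actb.L had a mean of 8.74 ± 0.11 (SD, n = 3).

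The proteins that handle actin monomers were all detected, 7 genes of 7. Profilins, which bring monomers to growing filament ends, had 14.38, 14.29 and 14.40 in replicates 1, 2 and 3 for pfn1 and 14.03, 14.02 and 14.02 for pfn2. Thymosin beta 4, encoded by tmsb4x, holds monomers in reserve, and its values were 14.72, 14.74 and 14.65. Cofilin severs old filaments and returns their subunits to the pool. The gene for its non-muscle form, cfl1, had 13.77, 13.76 and 13.67, and cfl2, the form of muscle in mammals, had a mean of 10.89 ± 0.11 (SD, n = 3). Cyclase-associated proteins help cofilin and recharge monomers. Of these cap1 had a mean of 11.10 ± 0.07 (SD, n = 3), whereas cap2, which in mammals is most abundant in striated muscle, lay near the threshold at 5.37, 4.46 and 4.88 in replicates 1, 2 and 3 (adjusted p = 0.0143, limma). For the other genes above 4, with myo1f set aside, the adjusted p was 0.000927 or lower.

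The Arp2/3 complex, which starts new filaments as branches on the sides of old ones, was represented by 6 genes, and all 13 of their probe sets were above 4. The actin-related subunit actr3 had a mean of 12.95 ± 0.04 (SD, n = 3), and arpc2, which binds the mother filament, had 13.08 ± 0.03 (SD, n = 3). Subunits arpc4, arpc1a and arpc5 had 13.87 ± 0.03, 13.73 ± 0.07 and 12.79 ± 0.07 (SD, n = 3 each). The paralogue arpc5l had 8.42 ± 0.15 (SD, n = 3) for its L copy and 8.30 ± 0.28 (SD, n = 3) for its S copy. The remaining actin-related proteins that the rule took do not branch filaments. Their 5 genes were all above 4. Dynactin, the partner of the dynein motor, contains the products of actr1a, at 10.71 ± 0.13, and actr10, at 11.59 ± 0.12 (SD, n = 3 each). The products of actr5, actr6 and actr8 act in chromatin remodelling complexes in human cells and yeast. They had 8.66 ± 0.12, 10.95 ± 0.06 and 8.51 ± 0.42 (SD, n = 3 each).

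Activators of branching and factors of filament elongation were detected in 8 of 9 cases. The WAVE proteins wasf1 and wasf2, which relay Rac signals to Arp2/3, had 11.94 ± 0.04 and 12.14 ± 0.14 (SD, n = 3 each), and wasl, which does so for Cdc42, had 11.14 ± 0.08 (SD, n = 3). A further WASP-like gene, wasll, has 1 probe set, annotated to the S copy, and none annotated to an L copy. Its values were 1.99, 2.01 and 1.98 in replicates 1, 2 and 3, below 4 at an adjusted p of 1.25e-08 (limma). This is about the level of 15 control probe sets without a target in the frog, whose values on single arrays lay between 1.84 and 2.0. All 3 members of the Ena/VASP family, which extend filaments at the leading edge, were above 4. Their means were 10.01 ± 0.19 for enah, 9.96 ± 0.09 for vasp and 13.31 ± 0.07 for evl (SD, n = 3 each). Cortactin, encoded by cttn, stabilizes branches and had 13.56 ± 0.08 (SD, n = 3). The coronin coro1c takes part in their removal and had 13.19 ± 0.14 (SD, n = 3).

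Capping protein and the gelsolin family, which close or cut filament ends, were above 4 in 5 of 6 cases. Capping protein is a dimer of an alpha and a beta subunit, and its 3 genes differed little between arrays. The alpha subunit capza1 had 13.86, 13.82 and 13.81 in replicates 1, 2 and 3, and the beta subunit capzb had 13.67, 13.70 and 13.66. The other alpha subunit, capza2, had a mean of 13.54 ± 0.03 (SD, n = 3). Gelsolin, encoded by gsn, had 13.59, 13.74 and 13.74, with all 3 of its probe sets above 4. Within the same family vil1, the villin of intestinal microvilli, was at 2.02, 2.02 and 2.02, and its second probe set had a mean of 1.98 ± 0.01 (SD, n = 3). For vil1 the adjusted p of a mean below 4 was 4.74e-09 (limma). Both of its probe sets are annotated to the S copy, so these values do not speak of an L copy. Villin-like, vill, was above 4 with both copies, at 10.10 ± 0.12 for L and 12.08 ± 0.09 for S (SD, n = 3 each).

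Bundling and crosslinking proteins were all above 4, 5 genes of 5. Plastin 3, encoded by pls3, is one of the bundling proteins of stereocilia in mammals, and its values were 14.10, 14.01 and 13.81 in replicates 1, 2 and 3. The 3 other probe sets of pls3.L had means of 10.97, 6.32 and 6.13, all above 4. Fascin, encoded by fscn1, packs filaments of filopodia tightly and had 12.70, 12.69 and 12.56. The non-muscle alpha-actinins, which crosslink filaments more loosely, had means of 12.07 ± 0.10 for actn1 and 12.20 ± 0.04 for actn4 (SD, n = 3 each). Filamin C, encoded by flnc and in mammals a filamin of muscle, was the member of this group with the largest spread, at 7.55, 6.68 and 7.41.

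Among the links of actin to membranes and junctions, 3 of 4 genes were above 4, near the 78.7% of all annotated genes. Ezrin and moesin tie filaments to the plasma membrane, and ezr had 10.29 ± 0.02 and msn 12.64 ± 0.16 (SD, n = 3 each). The junction protein lmo7 had 12.08 ± 0.14 for its L copy and 11.51 ± 0.11 for its S copy (SD, n = 3 each). Vinculin, which couples filaments to integrin and cadherin adhesions, was below the threshold. The values of vcl were 2.83, 2.93 and 2.92 in replicates 1, 2 and 3, below 4 at an adjusted p of 1.04e-05 (limma). They were higher than the values of the control probe sets without a target, which lay between 1.84 and 2.0. All 3 vcl probe sets, which are annotated to the S copy, were below 4, the other two at 2.501 ± 0.34 and 2.05 ± 0.22 (SD, n = 3 each). No probe set with the symbol of the L copy was among those analysed, so these values do not speak of it.

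Every myosin gene of the list was above 4, 10 of 10, and so were all 16 of their probe sets. Myosin II is the motor that contracts actin belts, and its non-muscle heavy chains had means of 13.09 ± 0.04 for myh9 and 11.51 ± 0.16 for myh10 (SD, n = 3 each). Class I myosins connect membranes to filaments. For myo1c, which has been studied as a motor of adaptation in hair cells, the values were 13.07, 13.02 and 12.92 in replicates 1, 2 and 3. The means of myo1d and myo1e.2 were 10.84 ± 0.11 and 8.81 ± 0.19 (SD, n = 3 each). Myosin X, of the tips of filopodia, is represented by myo10.2, at 11.00 ± 0.19 (SD, n = 3). The class IX myosin myo9b had 6.43 ± 0.12, and myo19, a motor of mitochondria, had 6.89 ± 0.33 (SD, n = 3 each). The remaining myosins, myo1f and myo5a, differed more between arrays and are described with the pools. The gene lcp2, at 6.20, 5.81 and 5.51, came into the list by its spelling. It encodes a signalling adaptor of leukocytes, while plastin of leukocytes is lcp1, which the rule did not take.

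Some genes had a probe set below 4 although another was above it. This was so for actn4, cfl1, ezr, fscn1 and wasf1, which are 5 of the 29 members with 2 or more probe sets (17.2%), beside 28.8% of all annotated genes with 2 or more. For cfl1.S the probe sets had means of 13.73 ± 0.05 and 1.85 ± 0.005 (SD, n = 3 each), and for ezr.L they had 10.29 ± 0.02 and 1.83 ± 0.004 (SD, n = 3 each). For wasf1.S the means of its 4 probe sets were 11.94, 10.80, 9.03 and 2.19. For actn4.S those of its 3 were 12.20, 10.05 and 1.95. In these 4 genes the probe sets on both sides of 4 carry the same copy in the annotation, so which of them is read decides whether that copy counts as expressed. The array's own control probe sets for actin, which the annotation assigns to actb.L, were likewise on both sides of 4. Those for the 3′ end and the middle had means of 14.84 ± 0.03 and 14.61 ± 0.09, while that for the 5′ end had 1.97 ± 0.01 (SD, n = 3 each). The array's controls for ef1a had means of 13.91, 12.45 and 10.69 for the 3′ end, the middle and the 5′ end. Those for gapdh had 14.44, 14.08 and 13.37, so both fell toward the 5′ end but stayed above 4. Where the probe sets below 4 lie along their transcripts was not examined.

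**Figure D2:**
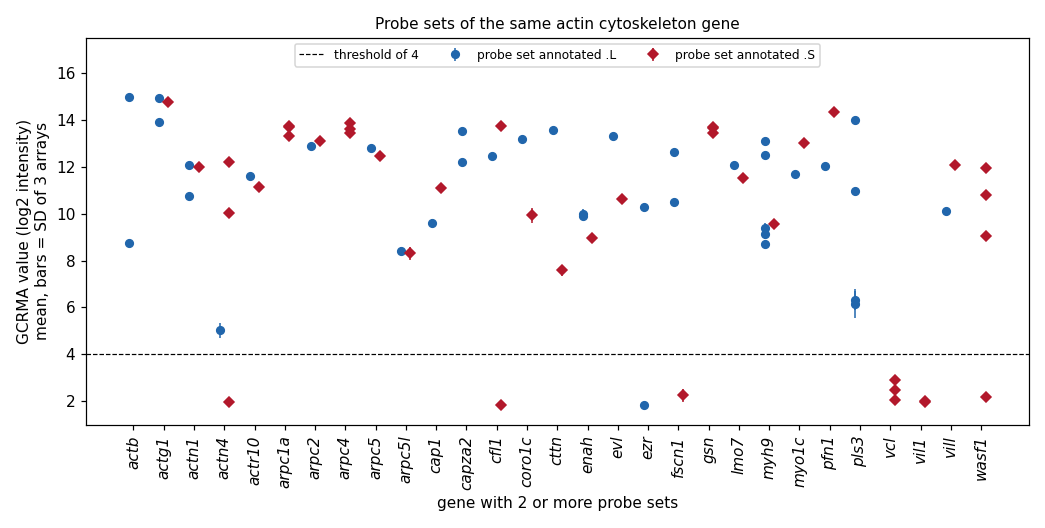
Mean GCRMA value (log2 intensity) of every probe set of the 29 genes with 2 or more, with bars for the SD of 3 arrays, circles for probe sets annotated to the L copy, diamonds for the S copy and a dashed line at the threshold of 4. Points of actn4, cfl1, ezr, fscn1 and wasf1 lie on both sides of the line, and all points of vcl and vil1 lie below it.

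X. laevis has a duplicated genome, and many genes are present as an L and an S copy on chromosomes from different ancestors. Both copies were annotated apart for 19 of the 55 genes, while 22 had probe sets of the L copy only and 14 of the S copy only. Apart from fscn1, both copies were above 4 in each of these 19 genes, among them actg1, pfn1, cfl1, arpc2, arpc5, actn1, cttn, evl, myh9 and myo1c. The L copy of fscn1 was read by 2 probe sets with means of 12.65 ± 0.08 and 10.50 ± 0.13, and its S copy by 1 probe set with 2.06, 2.57 and 2.14 in replicates 1, 2 and 3, averaging 2.26 ± 0.27 (SD, n = 3 each). Copies on opposite sides of 4 were thus seen in 1 of 19 genes (5.26%), beside 12.3% of the 2009 annotated genes with both copies. As the S copy of fscn1 rests on a single probe set, and 4 other genes had a value below 4 for a copy that was detected otherwise, the probe set and the copy cannot be told apart here.

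The actin cytoskeleton genes showed no common shift between pools. The muscle markers, the neuron markers and 2 of 3 hair cell markers did differ, as did some markers of other cell types. Over the 52 genes with a mean of 4 or higher, the median difference of an array from the mean of the other arrays was 0.003, 0.002 and 0.03 on the log2 scale for replicates 1, 2 and 3. Over all 7381 annotated genes at 4 or higher (79.9% of 9240) these medians were -0.02, 0.04 and -0.02. The members' medians changed sign in replicate 2 with quantile normalization (-0.01) and in replicate 3 with median centring (-0.01), so no direction can be given for the group. Single genes did differ, and by over 0.5 on the log2 scale for 9.62%, 9.62% and 3.85% of the members in replicates 1, 2 and 3, beside 7.32%, 9.16% and 9.55% of all annotated genes at 4 or higher. Markers of skeletal muscle, in contrast, were lower in replicate 3 for 9 of 9 detected genes, by a median of -1.70. They include ckm, creatine kinase of muscle, at 12.74, 12.87 and 11.32 in replicates 1, 2 and 3, and mylpf, a light chain of muscle myosin, at 12.81, 12.81 and 10.85. The summed intensity of the 10 measured muscle markers, on the log2 scale, was 14.99, 15.05 and 13.27, and actn2, alpha-actinin of striated muscle, was at the floor. Markers of neurons were lower in replicate 2 for 6 of 6 genes, by a median of -1.03, with a log2 sum of 13.89, 13.23 and 14.32. Of the 3 measured hair cell markers calb1 had 8.19, 8.15 and 10.79 and kcnma1 had 6.65, 6.69 and 7.42 in replicates 1, 2 and 3, and the median of the list in replicate 3 was 0.74, while myo6 differed there by -0.03. Both detected melanocyte markers were lower in replicate 1 (median -0.49), and both endothelial markers in replicate 3 (median -0.41). The red cell genes hba1, hbg1 and slc4a1 were higher in replicate 3, by 4.72, 2.21 and 1.08, while the median of their list there was 0.04. With 1 array per pool no test of these differences is possible, and fewer cells of a type cannot be told apart from less RNA per cell.

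**Figure D3:**
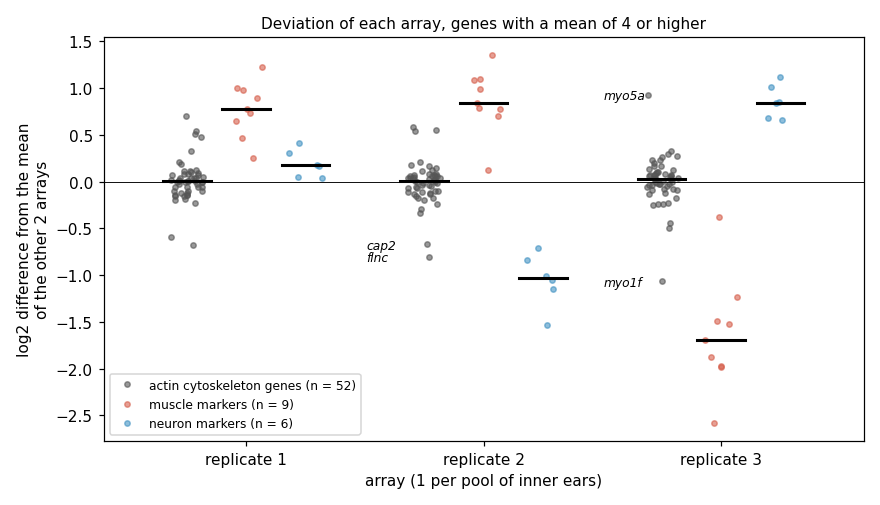
Difference of each array from the mean of the other 2 arrays (log2 units), 1 point per gene with a mean of 4 or higher, for actin cytoskeleton genes, muscle markers and neuron markers, with black bars for the medians. The actin cytoskeleton genes centre on 0 on every array, while the muscle markers have a median of -1.70 in replicate 3 and the neuron markers of -1.03 in replicate 2.

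Within the list, 5 genes had an SD above 0.38, the 90th percentile of all annotated genes at 4 or higher. They were myo1f, myo5a, flnc, cap2 and actr8. This cut-off was exceeded by 10% of all those genes and 9.62% of the members, so the list held about the common share. The cut-off takes no account of level, and spread was larger at low means. The means of myo1f, cap2 and flnc were 5.31, 4.90 and 7.21. At means from 4 to 8 the median SD of all annotated genes was 0.26. Each of the 5 is measured by a single probe set. Myosin Va, encoded by myo5a, carries vesicles in neurons and melanosomes in pigment cells. Its values were 7.82, 8.00 and 8.83 in replicates 1, 2 and 3, so that replicate 3 was 0.93 above the mean of the others. Replicate 3 was also high for the neuron markers (median 0.84), which were lowest in replicate 2, while myo5a was lowest in replicate 1, where both detected melanocyte markers, tyrp1 and pmel, were lowest. Of the 3 measured hair cell markers calb1 and kcnma1 were highest in replicate 3 as well, while myo6 was highest in replicate 1. The part of any of these cell types in the value of myo5a was not tested.

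The myosin myo1f, which in mammals is mainly found in leukocytes, had 5.63, 5.70 and 4.59 in replicates 1, 2 and 3 (adjusted p = 0.0101, limma). Replicate 3 differed from the mean of the others by -1.07. The leukocyte adaptor lcp2 was also lowest in replicate 3. Of 9 leukocyte markers 6 were measured, 4 of them above 4, and their summed intensity was 12.65, 12.77 and 12.66 on the log2 scale. Most of this sum came from 1 gene, cd74, which had 12.34, 12.45 and 12.33 in replicates 1, 2 and 3. Among the 6 markers ptprc, the defining marker CD45, was at 2.01, 2.02 and 1.98. In replicate 3 the difference from the mean of the other arrays was 0.005 for lcp1, -0.07 for coro1a, -0.06 for rac2 and cd74 and 1.87 for mpo, a marker of granulocytes that passed neither test, and the part of leukocytes in the value of myo1f was not tested.

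The members that are muscle forms in mammals, flnc, cap2 and cfl2, did not show the pattern of the muscle markers. Filamin C was lowest in replicate 2, with a difference of -0.80 from the mean of the other arrays, and its difference in replicate 3 was 0.29. For cap2 the differences were 0.70 in replicate 1 and -0.67 in replicate 2, and cfl2 was highest in replicate 3, at 0.19. The muscle markers were high in replicates 1 and 2 and low in replicate 3. The part of muscle in the values of flnc, cap2 and cfl2 was not tested. The chromatin component actr8 had 8.06, 8.88 and 8.60 in replicates 1, 2 and 3, lowest in replicate 1, while actr5, of the same remodelling complex in human cells, had 8.53, 8.77 and 8.68, also lowest in replicate 1. The signs of these differences for myo1f, myo5a, flnc, cap2 and actr8 were the same under quantile normalization and median centring.

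Outside these 5 genes the largest SDs were 0.35 for lcp2 and 0.33 for myo19. The median SD of the 52 genes was 0.09, beside 0.14 for all annotated genes at 4 or higher, and the smallest was that of pfn2, at 0.006. Spread falls with level on these arrays. At means from 12 to 14 the median SD was 0.07 for 23 members and 0.09 for all 1454 genes, and at 14 or higher it was 0.05 both for 5 members and for all 216 genes. From 10 to 12 it was 0.11 for 12 members and 0.13 for all genes, and from 8 to 10 it was 0.17 for both. At means from 4 to 8 it was 0.40 for 6 members and 0.26 for all 1374 genes. At like levels the members' median was thus lower from 10 to 12 and from 12 to 14, and higher from 4 to 8. The part of level in the lower median of the list was not tested.

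**Figure D4:**
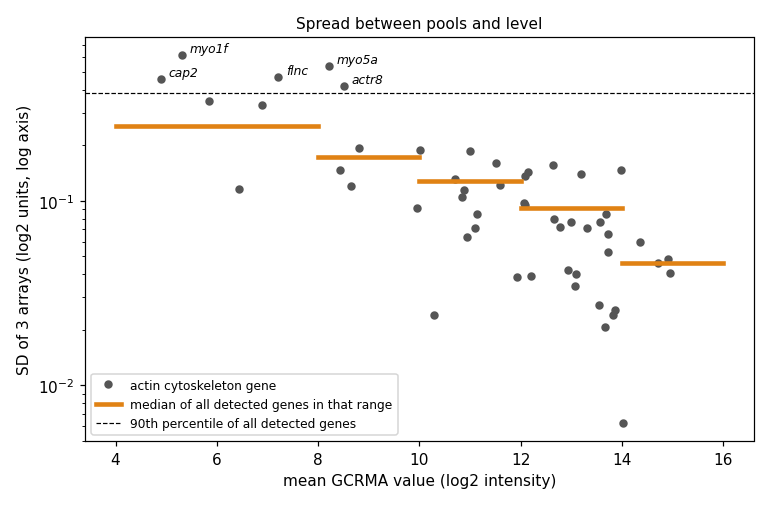
SD of 3 arrays (log2 units, log axis) against the mean GCRMA value of the 52 members at 4 or higher, with bars for the median SD of all annotated genes in the same range of means and a dashed line at the 90th percentile of all these genes. The named genes myo1f, myo5a, flnc, cap2 and actr8 lie above the dashed line, and members with a mean of 12 or higher have SDs under 0.16.

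Further genes that assist this machinery were counted by the same test, from lists of the wider pathway. Among all annotated genes 78.7% were above 4. The lists were chosen with earlier results of these data known, and further genes after their values were seen. A difference between their counts and that share therefore cannot be read as a result. The WAVE complex partners and the SRF axis were above 4 in 10 of 11 measured genes. The complex holds wasf1 or wasf2 together with Cyfip, Nckap, Abi and Brk proteins, and cyfip1, nckap1, abi2 and brk1 had means of 9.31, 13.51, 11.54 and 13.11. SRF is the transcription factor of actin genes, and its cofactor mrtfa senses free actin monomers. While mrtfa had 9.74 ± 0.10 (SD, n = 3), srf had 4.09, 4.16 and 4.93 in replicates 1, 2 and 3 and passed neither test. All 5 measured genes of myosin light chains and their phosphatase were above 4, among them the non-muscle light chain myl12b at 13.65 ± 0.01 (SD, n = 3).

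Of 30 measured tropomyosins and other actin-binding proteins 28 were above 4. Destrin, a relative of cofilin encoded by dstn, had 13.33 ± 0.05 (SD, n = 3), and radixin, which is related to ezrin and moesin, had 12.11 ± 0.11 (SD, n = 3). Tropomyosins coat filaments and control which proteins reach them. The gene tpm4 had 13.91, 13.90 and 13.79 in replicates 1, 2 and 3, whereas tpm1, which muscle also uses, had 13.30, 13.42 and 11.64, with a difference of -1.72 in replicate 3, where the muscle markers were low too. Twinfilin, a monomer-binding protein, was below 4 for twf1, at 2.80 ± 0.44, and above it for twf2, at 11.43 ± 0.17 (SD, n = 3 each). The scaffold iqgap1 had 2.99, 3.07 and 3.93 and passed neither test.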

How the data were processed

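The 3 Affymetrix frog arrays were read as log2 values that the authors deposited. They had run GCRMA, which removes background, normalizes the arrays to each other and condenses the probes of a set to 1 value. The version of that software is not given in the sources used here. Values of frog probe sets ran from 1.62 to 15.83, and Pearson's r between arrays was 0.994 to 0.996 across probe sets. No scanner files were used, so background correction was not varied.

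Symbols came from the platform annotation, in which 15495 frog probe sets have 1 symbol, 279 have several and 16701 have none. By gene ID all 103 probe sets of the list had an entry in a RefSeq gene table (assembly v10.1), with the same symbols. Copy suffixes were removed, and a gene took the value and call of its probe set with the highest mean. Means were tested against 4 with limma 3.58.1 in R 4.3.3, by one-sided moderated tests in each direction allowing the variance to follow the mean, and p-values were adjusted by Benjamini-Hochberg across 32475 frog probe sets. The step was tested on simulated data. Other steps used Python 3.11.15 with numpy 2.4.6 and pandas 2.3.3.

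Genes were named by a rule of 50 central genes, genes not above 4, genes with an SD above the 90th percentile and genes with copies on opposite sides of 4, and further genes of the pathway were chosen after their values were seen. The members and lists were chosen with earlier results of these data known. Of the 50 genes 34 were measured, and tmsb10, actr2, arpc1b, diaph1, diaph2, pls1, fscn2, espn, flna, flnb, tln1, myh14, myo3a, myo7a, myo10 and myo15a had no probe set with that symbol alone here. Alternatives changed the threshold, the normalization, the variance model, the probe sets entered, the gene value and the arrays. A list of signalling genes is not reported here.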

Additional observations from a re-analysis of the deposited data

Results flagged for a closer look

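Signal was seen in probe sets that lie outside the comparisons above. The array's own actin controls are annotated to actb.L but were not counted as frog probe sets here. Those for the 3′ end and the middle were well above the controls without a target. Their GCRMA values were 14.84 ± 0.03 for the 3′ end, 14.61 ± 0.09 for the middle and 14.62 ± 0.08 for a middle set with shared probes (SD, n = 3 each). The actin control for the 5′ end was at the level of the controls without a target, at 1.97 ± 0.01 (SD, n = 3). The 5′ controls of ef1a and gapdh had means of 10.69 and 13.37. A probe set annotated with arpc3, a further subunit of the Arp2/3 complex, and with another gene had 13.78 ± 0.06 (SD, n = 3). It was left out because its symbol is not single. Groups of 3 arrays are too small for a test of single outlying arrays.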

How the results depend on the processing

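The main counts were 52 genes above 4, 3 below, and 1 gene with copies on opposite sides. They stayed the same under quantile normalization, median centring, no mean-variance trend and a threshold of 3, and without replicate 1, 2 or 3. With single-symbol probe sets only they were also the same, by construction, as the rule takes only such probe sets. With a threshold of 5, the mean of cap2, at 4.90, lay under it, and myo1f no longer passed the test above it. This left 50 genes above and still 3 below, so cap2 and myo1f passed neither test. Without probe sets of shared sequence 49 genes were above, as 3 members had no other probe set. The largest change came with the gene value. With the probe set of the lowest mean, 47 genes were above 4 and 8 below. The genes that changed side then were actn4 (1.95), cfl1 (1.85), ezr (1.83), fscn1 (2.26) and wasf1 (2.19), by construction through their probe sets below 4. The mean over all probe sets, used with no test, again put 52 and 3 genes on either side, but 28 of 55 gene values moved, such as actb (11.85), pls3 (9.35), cfl1 (9.35) and ezr (6.06). No paired analysis was possible because all samples belong to 1 group. Depth is set by the arrays, and values near 2 are at the level of controls without a target, so low expression cannot be told from none there.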

Other observations

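The myosins left out of the list also have probe sets on the array. Myosin VI, encoded by myo6, which moves toward the pointed end of filaments and sits at the base of stereocilia, had GCRMA values of 12.48, 12.32 and 12.37 in replicates 1, 2 and 3. For myo1a, the brush border myosin of the gut in mammals, they were 4.54, 4.51 and 5.10.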
